A study of Mus musculus with 12 samples.

Results

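A set of 10 transcription factor genes that act in granulopoiesis, the making of neutrophils in bone marrow (BM), were followed in neutrophils of tumors and of marrow. The members were Cebpa, Cebpb, Cebpd, Cebpe, Gfi1, Spi1, Runx1, Irf8, Klf2 and Klf6, chosen by name, and all 10 were among the 55335 genes counted. Tumor-associated neutrophils (TANs) were taken from mammary tumors of animals with Cxcr2 (4 PyMT mice) and without it (4 PyMT-Cxcr2-/- mice), and BM neutrophils from 4 WT mice, with 1 RNA-seq library per mouse. All mice were FVB animals of 10 weeks of age. PyMT mice carry the polyoma virus middle T antigen as a transgene that gives mammary tumors, and PyMT-Cxcr2-/- mice also lack the chemokine receptor Cxcr2 in every cell of the body. The WT mice carried neither change, so tissue, tumor and transgene cannot be told apart in a comparison of TANs with BM neutrophils. Cell isolation differed as well, since tumors were minced and digested, whereas marrow was spun out of leg bones. Its part in such a comparison cannot be told apart either. Cells were enriched for CD11b and sorted as CD45+ CD11b+ Ly6G+ F4/80- cells.

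Neutrophils arise from granulocyte-monocyte progenitors through promyelocytes, myelocytes and band cells, and a changing set of factors marks each step. C/EBPα and PU.1, the product of Spi1, open the myeloid program. GFI1 represses monocytic genes, C/EBPε drives the genes of the secondary granules in the last divisions, and C/EBPβ takes over when demand for neutrophils is high. IRF8 turns the same progenitors towards monocytes and dendritic cells.

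The promoters of 2 of the factors that moved are shown, that of the largest rise (Irf8) and that of the factor with the largest share of the C/EBP family in TANs (Cebpb), because each held repeats of 1 motif that few promoters hold. Each line is the 250 bases before the most upstream RefSeq start (GRCm38.p6, 5′ to 3′ on the gene's strand), and capitals mark matches to the motifs searched. They lie at chr8:120736108-120736357 (plus strand) and chr2:167688665-167688914 (plus strand).
Irf8: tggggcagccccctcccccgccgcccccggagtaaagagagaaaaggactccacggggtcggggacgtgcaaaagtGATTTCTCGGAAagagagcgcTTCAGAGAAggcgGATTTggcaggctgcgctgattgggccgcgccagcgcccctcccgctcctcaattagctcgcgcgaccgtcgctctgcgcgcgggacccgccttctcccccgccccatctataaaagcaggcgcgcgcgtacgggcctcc
Cebpb: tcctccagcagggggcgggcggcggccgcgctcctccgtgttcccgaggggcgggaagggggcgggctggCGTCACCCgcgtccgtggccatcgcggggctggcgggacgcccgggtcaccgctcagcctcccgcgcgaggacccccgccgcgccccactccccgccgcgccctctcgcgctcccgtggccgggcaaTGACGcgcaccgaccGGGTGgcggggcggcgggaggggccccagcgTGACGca

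In all, 8 motifs were searched on both strands, with N for any base: C/EBP (TTGCNNAA), PU.1 (GAGGAA), RUNX (TGTGGT), GFI1 (AAATC), IRF (GAAANNGAA), the STAT site GAS (TTCNNNGAA), the CREB site CRE (TGACG) and KLF (CACCC). RefSeq promoters were at hand for 7 of the 10 members. The Irf8 window held 2 GAS matches, from base -171 and from base -153 before the start (0.317% of the 32851 windows of this length hold 2 or more), and 2 GFI1 matches, of which that from -174 overlaps the first GAS match. Cebpb held 3 CRE matches (0.688% of windows hold 3 or more), from -180, -53 and -7, and 2 KLF matches (21.1% hold 2 or more), one of which overlaps the first CRE match. Gfi1 held 1 C/EBP match from -143 (9.56% of windows) and 2 KLF matches, and is not printed because GENCODE M21 places the start of Gfi1 further upstream. No window of the 7 held the PU.1, RUNX or IRF letters (23.3%, 14.05% and 7.13% of all windows). The 2 printed windows were picked for their repeats after all 8 motifs had been searched in 7 promoters, so these shares are not a test. The windows they refer to were not matched for GC content, which was 81.6% in the Cebpb window. A match is a description of these letters, and binding was not measured.

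Levels are given as CPM, that is counts scaled by the library total with TMM factors. A gene was called at a fold of at least 1.5 and a p under 0.05 in edgeR's quasi-likelihood test, after adjustment over all genes tested by the method of Benjamini and Hochberg. Total counts on genes were 25032704 to 51351569 per library. The level that 3 counts stand for was 0.0566 to 0.102 CPM, which covers counting error only, and no member was below it in any library. Cxcr2 was at 8.82 to 10.0 CPM in PyMT-Cxcr2-/- TANs, against 1044 to 1524 CPM in PyMT TANs and 1824 to 2253 CPM in WT BM neutrophils. The 8 neutrophil markers summed to 73993 to 98333 CPM in BM, 17639 to 28822 CPM in TANs without Cxcr2 and 10428 to 16570 CPM in PyMT TANs, and none was at 0 in a group. Among them Ly6g, the gene of the antigen used for sorting, was at 549 CPM ± 85.3 in BM, 125 CPM ± 36.8 in TANs without Cxcr2 and 35.7 CPM ± 12.2 in PyMT TANs (SD, n = 4).

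Of the 10 factors, 8 differed between TANs and BM neutrophils, and they were the same 8 in both TAN groups. Cebpa, Cebpb, Runx1 and Irf8 were higher in TANs, whereas Cebpd, Cebpe, Gfi1 and Spi1 were lower, and neither Klf2 nor Klf6 was called. None of the 10 was called between the TANs with and without Cxcr2. Both TAN groups were set against the same 4 WT mice, so the shared directions are not independent.

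For PyMT TANs against WT BM neutrophils, 4 of 10 members were called higher, where 30.1% of the 17153 genes tested were higher, and 4 of 10 were called lower, where 23.2% of the genes were. The groups did not overlap for 7 of 10 members, against 58.3% of all genes tested. The median size of the log2 fold change was 1.30 over the members and 1.05 over all genes tested. For PyMT-Cxcr2-/- TANs, again 4 members were higher (34.4% of 17732 genes) and 4 lower (25.1%), and 7 did not overlap (65.9% of genes). There the median size of the log2 fold change was 1.14 over the members and 0.93 over all genes. When the dependence of each library on GC content and exon length was taken out, the calls over all genes split into 4432 higher and 5255 lower for PyMT TANs and into 4794 higher and 7305 lower for PyMT-Cxcr2-/- TANs. Unadjusted, they were 5160 higher and 3988 lower, and 6104 higher and 4444 lower.

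**Figure D1:**
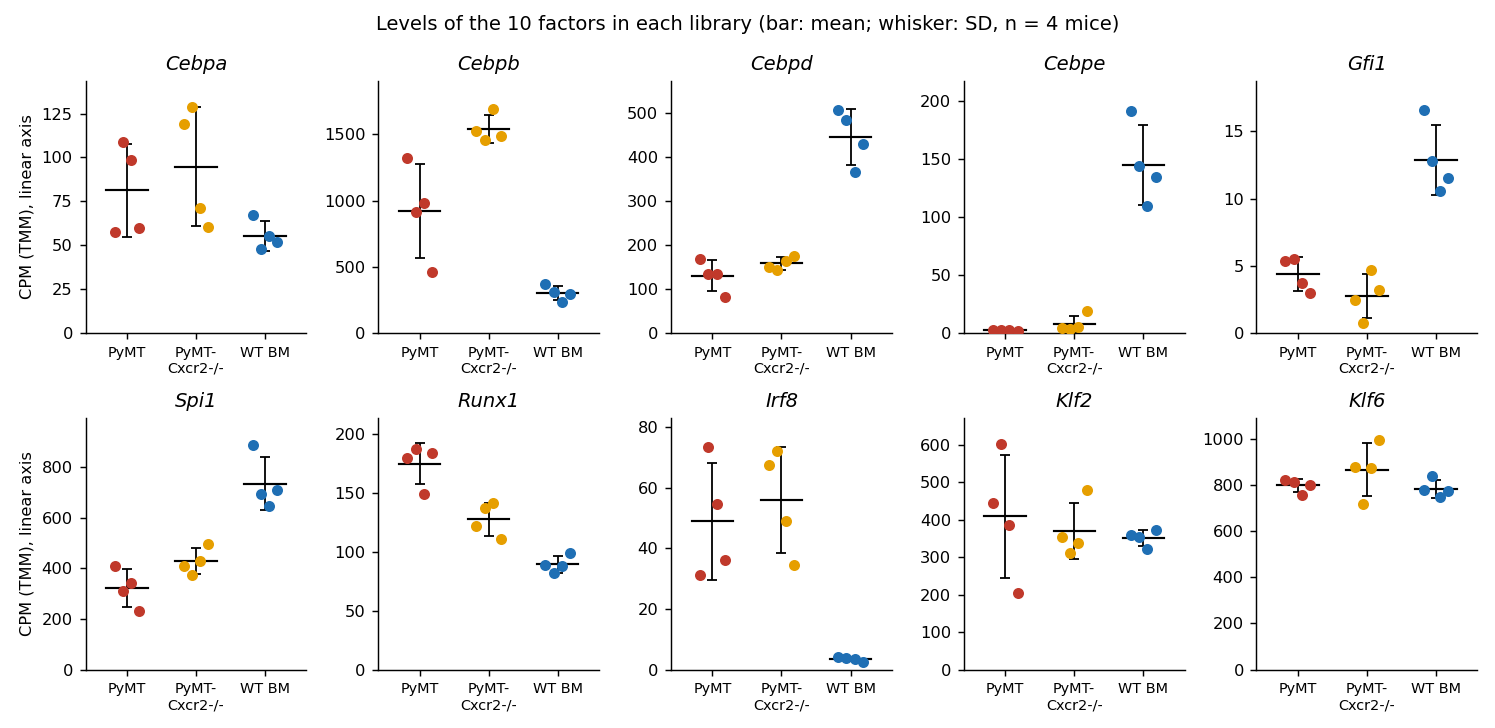
Level of each of the 10 factors in CPM (linear axes that start at 0) in the 4 libraries of PyMT TANs, PyMT-Cxcr2-/- TANs and WT BM neutrophils. Points are libraries, bars means and whiskers SD (n = 4 mice); Cebpe lies at 1.67 to 18.7 CPM in TANs and at 109 to 192 CPM in marrow, and Irf8 shows the opposite order.

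**Figure D2:**
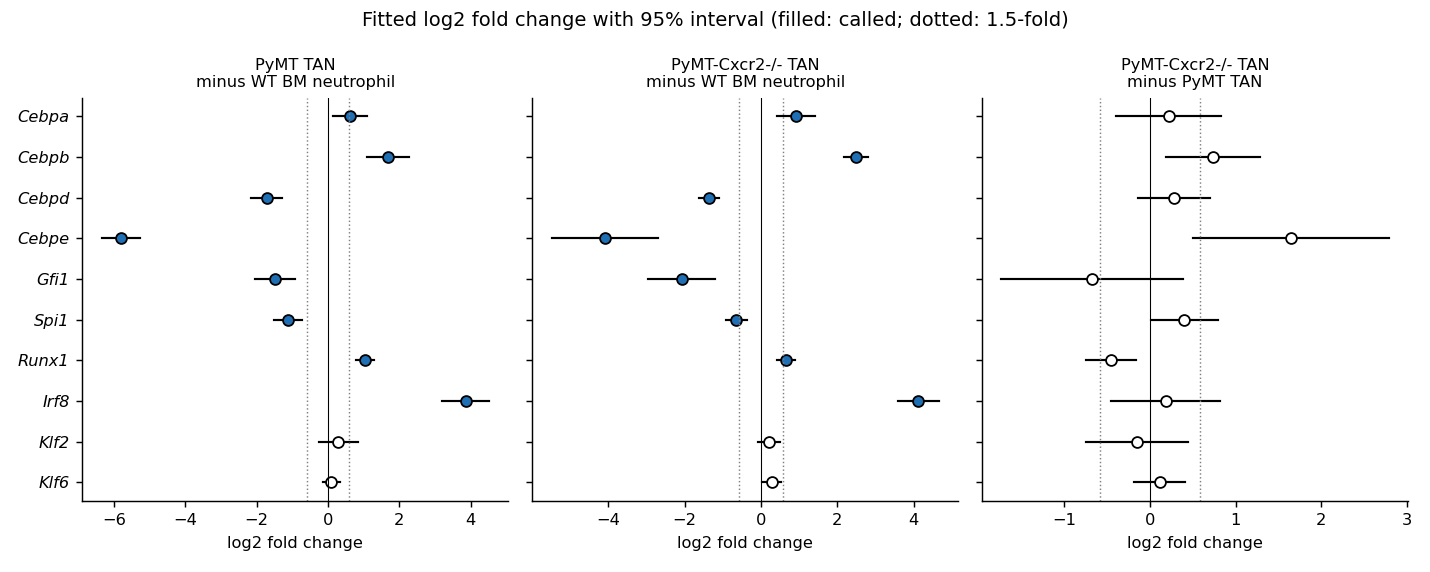
Fitted log2 fold change of each factor with its 95% confidence interval in the 3 comparisons, where filled points are called genes and dotted lines stand at a fold of 1.5. The 3 panels have their own horizontal scales; 8 factors are called in each comparison with marrow and none between the TANs.

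Cebpe, the factor of the myelocyte and metamyelocyte stages, had the largest decrease of the 10 in both TAN groups (chr14:54710360-54712174 on the minus strand, mm10). It was at 192, 144, 109 and 135 CPM in the 4 WT BM libraries and at 2.70, 2.83, 2.73 and 1.67 CPM in PyMT TANs, and at 4.05, 3.44, 4.83 and 18.7 CPM in PyMT-Cxcr2-/- TANs. Every TAN library was below every BM library, and replicate 4 of the PyMT-Cxcr2-/- TANs stood apart from the other 3. The fold change was -5.81 ± 0.24 on the log2 scale in PyMT TANs (SE, adjusted p = 2.9e-08) and -4.09 ± 0.60 in PyMT-Cxcr2-/- TANs (adjusted p = 0.00042). These are levels 56.02-fold and 17.05-fold lower, and without replicate 4 of the PyMT-Cxcr2-/- TANs the latter was -5.00 on the log2 scale.

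Granule protein genes moved with Cebpe. All 9 secondary and tertiary granule genes tested, a class that C/EBPε is known to drive, fell in both TAN groups, as did all 6 primary granule genes tested. Their median log2 fold change was -4.31 and -2.51 for the former and -3.95 and -4.50 for the latter, in PyMT and PyMT-Cxcr2-/- TANs, against 0.087 and 0.086 over all genes tested. Some primary granule genes were near the floor in TANs, so the size of their fall is uncertain. Ctsg averaged 0.021 and 0.013 CPM in PyMT and PyMT-Cxcr2-/- TANs, below the level of 3 counts, and Elane 0.30 and 0.28 CPM. Ltf, which encodes lactoferrin, was at 14927 CPM ± 3037 in BM, 269 CPM ± 65.8 in PyMT TANs and 1481 CPM ± 904 in TANs without Cxcr2 (SD, n = 4). Summed over the 9 genes, the level was 50975 to 77566 CPM in BM libraries, 1774 to 3070 CPM in PyMT TANs, 6030 to 7532 CPM in replicates 1 to 3 of the PyMT-Cxcr2-/- TANs and 14420 CPM in replicate 4. The TAN library with the highest Cebpe thus also had the highest granule sum, and the one with the lowest Cebpe the lowest sum. Other libraries did not keep this order within their groups. Replicate 2 of the PyMT TANs had the highest Cebpe of its group but a sum of 2668 CPM, below replicates 1 and 3 (3070 and 3025 CPM). Replicate 2 of the PyMT-Cxcr2-/- TANs had the lowest Cebpe of its group but 6978 CPM, above replicate 1 (6030 CPM). Mpo, the myeloperoxidase gene of promyelocytes, was at 31.4 CPM ± 8.10 in BM, 2.03 CPM ± 2.34 in TANs of PyMT mice and 0.76 CPM ± 0.50 in those of PyMT-Cxcr2-/- mice. Between the TANs Mpo was not called, and the PyMT TAN libraries went from 0.67 to 5.53 CPM.

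Cebpb, the C/EBP factor of demand-driven granulopoiesis, moved the other way (chr2:167688915-167690418, plus strand). Its level was 1325, 911, 981 and 462 CPM in TANs of PyMT mice, 1526, 1456, 1690.3 and 1490.4 CPM in PyMT-Cxcr2-/- TANs, and 367, 307, 238 and 295 CPM in WT BM neutrophils. The 3 groups did not overlap, and PyMT TANs were the most spread. Compared with BM, Cebpb was 3.18-fold higher in PyMT TANs (log2 fold change 1.67 ± 0.27 SE, adjusted p = 0.00025) and 5.61-fold higher in PyMT-Cxcr2-/- TANs (2.49 ± 0.14, adjusted p = 9.8e-09).

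Cebpd, a C/EBP factor that inflammatory signals induce, fell (chr16:15887286-15891031, plus strand). It was at 167, 134, 135 and 82.4 CPM in TANs of PyMT mice, 149.9, 144, 164 and 176 CPM in PyMT-Cxcr2-/- TANs and 505, 483, 364 and 428 CPM in WT BM neutrophils. All 8 TAN libraries were below the 4 BM libraries, by 3.28-fold in PyMT TANs (log2 fold change -1.72 ± 0.20, adjusted p = 2.5e-05) and by 2.56-fold in PyMT-Cxcr2-/- TANs (-1.36 ± 0.12, adjusted p = 4.2e-07). Exons of Spidr on the opposite strand cover 562 bases of Cebpd, and the strand setting of the counting is not given in the sources used here. For the same reason 312 bases of Cebpb shared with Tmem189, and shorter stretches of Cebpa, Gfi1 and Runx1, make these counts less certain.

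Cebpa, the factor of the earliest myeloid step, was the least clear of the called genes (chr7:35119293-35121928, plus strand). Its level was 57.5, 109, 98.6 and 60.0 CPM in TANs of PyMT mice, 119, 129, 71.2 and 60.3 CPM in PyMT-Cxcr2-/- TANs and 67.0, 47.6, 55.0 and 51.6 CPM in WT BM neutrophils. Both TAN groups overlapped BM. The log2 fold change was 0.62 ± 0.22 in PyMT TANs (adjusted p = 0.029) and 0.92 ± 0.23 in PyMT-Cxcr2-/- TANs (adjusted p = 0.004). In PyMT TANs the call was lost under 7 of 9 other settings and with 5 of 8 mice left out (replicates 2 and 3 of the TANs, replicates 2, 3 and 4 of BM), with log2 fold changes down to 0.12 and 0.43. In PyMT-Cxcr2-/- TANs it was lost with the GC and length adjustment (0.12, adjusted p = 0.55). Relative to the median of all genes under that adjustment, Cebpa was 0.52 higher there and 0.30 higher in PyMT TANs.

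Seen as a family, the 4 C/EBP genes changed in make-up. With each level divided by exon length, Cebpb made up 43.9% ± 0.54 of the summed level in WT BM neutrophils, Cebpd 26.1% ± 1.46, Cebpe 25.3% ± 1.54 and Cebpa 4.65% ± 0.78 (SD, n = 4). In PyMT TANs, Cebpb made up 89.4% ± 2.47, Cebpd 5.28% ± 0.67, Cebpa 4.97% ± 1.86 and Cebpe 0.31% ± 0.06. PyMT-Cxcr2-/- TANs had 92.3% ± 0.99 Cebpb, 3.82% ± 0.36 Cebpd, 3.27% ± 1.27 Cebpa and 0.57% ± 0.55 Cebpe. The mean share of Cebpa was thus small in each group, and that of Cebpb was larger in TANs than in BM where those of Cebpd and Cebpe were smaller. The sum itself was 365 to 559 CPM per kb in BM, 354 to 950 in PyMT TANs and 1058 to 1199 in PyMT-Cxcr2-/- TANs. These shares describe the libraries, without a test. With coding length in place of exon length, Cebpd led in BM (49.7%) and Cebpb was at 30.4%, whereas Cebpb kept the lead in PyMT TANs (80.3%) and PyMT-Cxcr2-/- TANs (85.5%).

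**Figure D3:**
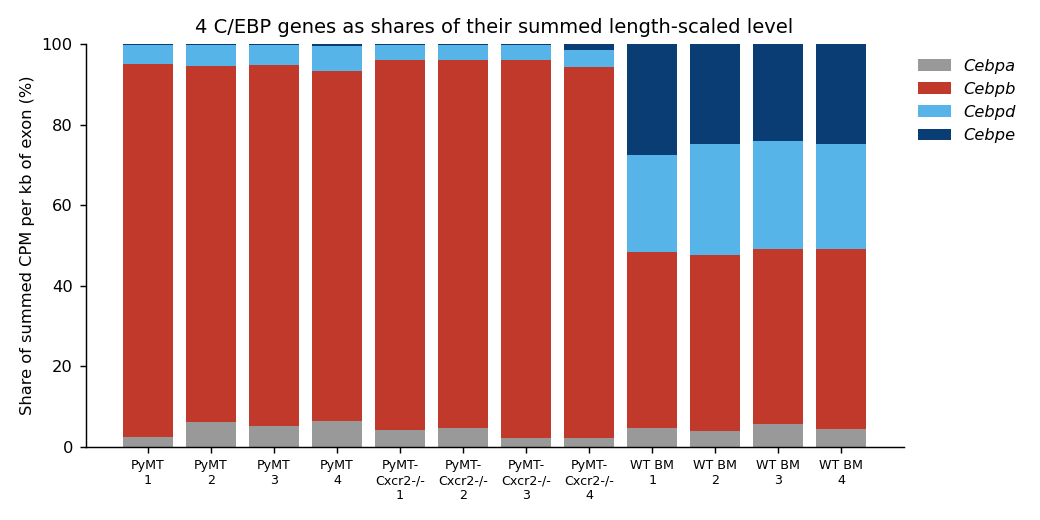
Share of Cebpa, Cebpb, Cebpd and Cebpe in their summed CPM per kb of exon (percent, bars add up to 100) in each of the 12 libraries. Cebpb takes 87.0% to 93.8% in the 8 TAN libraries and 43.4% to 44.7% in the 4 BM libraries.

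Of other genes of the C/EBP network, only Trib1, which encodes a pseudokinase that marks C/EBPα for breakdown, was called among the 6 tested, and it was higher in both TAN groups. From 648 CPM ± 98.9 in BM its level went to 1344 CPM ± 176 with Cxcr2 and 1752 CPM ± 362 without it. With the GC and length adjustment Cebpg was called lower as well, and in PyMT-Cxcr2-/- TANs also Ddit3. The median log2 fold change of these 6 genes was 0.46 and 0.35, against 0.087 and 0.086 over all genes tested.

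Gfi1, a zinc finger repressor that neutrophil formation needs, was a low transcript throughout (chr5:107716657-107726036, minus strand). It was at 16.6, 12.8, 10.6 and 11.6 CPM in WT BM neutrophils, 5.33, 5.53, 3.75 and 2.98 CPM in TANs of PyMT mice and 2.43, 0.72, 4.71 and 3.19 CPM in PyMT-Cxcr2-/- TANs. All TAN libraries lay below BM, and the lowest rested on 28 counts. Gfi1 fell 2.80-fold in PyMT TANs (log2 fold change -1.48 ± 0.26, adjusted p = 0.0005) and 4.23-fold in PyMT-Cxcr2-/- TANs (-2.08 ± 0.40, adjusted p = 0.00055).

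Spi1 encodes PU.1, an ETS factor whose amount steers myeloid progenitors (chr2:91082390-91115756, plus strand). It was at 887, 694, 646 and 708 CPM in WT BM neutrophils, 409, 309, 341 and 231 CPM in TANs of PyMT mice and 410.0, 375, 430.2 and 495 CPM in PyMT-Cxcr2-/- TANs, with no overlap between BM and either TAN group. The decrease was 2.18-fold in PyMT TANs (log2 fold change -1.12 ± 0.17, adjusted p = 0.00021) and 1.56-fold in PyMT-Cxcr2-/- TANs (-0.64 ± 0.13, adjusted p = 0.00046). Without replicate 2 of the PyMT-Cxcr2-/- TANs or replicate 1 of BM the latter was -0.56, which is under the fold limit. Of 8 other ETS genes tested, 1 was higher and 4 lower in each comparison. Ets2 rose from 331 CPM ± 79.2 in BM to 2129 CPM ± 178 with Cxcr2 and 2432 CPM ± 339 without it, while Ets1 fell from 215 CPM ± 38.2 to 35.3 CPM ± 7.61 and 42.1 CPM ± 13.02.

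Runx1, the DNA-binding subunit of core-binding factor, rose (chr16:92601466-92826149, minus strand). Its level was 179, 187, 149 and 184 CPM in TANs of PyMT mice, 122, 137, 141 and 111 CPM in PyMT-Cxcr2-/- TANs and 89.0, 81.5, 87.8 and 98.4 CPM in WT BM neutrophils. The 3 groups formed 3 separate ranges, with PyMT TANs at the top. The log2 fold change was 1.03 ± 0.12 in PyMT TANs (adjusted p = 2.1e-05) and 0.65 ± 0.11 in PyMT-Cxcr2-/- TANs (adjusted p = 0.00011). With the GC and length adjustment neither was called, at 0.37 (adjusted p = 0.056) and -0.22 (adjusted p = 0.11), and with 12 libraries in one fit the latter was 0.52, under the fold limit. That adjustment moved the median of all genes by -0.24 and -0.49, and relative to the new median Runx1 was 0.52 and 0.17 higher. Among other core-binding factor genes, Runx3 rose from 6.34 CPM ± 1.23 in BM to 37.5 CPM ± 11.6 in the TANs with Cxcr2 and 38.3 CPM ± 11.47 in those without. Runx2 fell in PyMT TANs (log2 fold change -0.79), and Cbfb, the partner subunit, fell in PyMT-Cxcr2-/- TANs (-0.69), and with the GC and length adjustment both were called lower in both TAN groups.

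Irf8, the interferon regulatory factor of monocyte and dendritic cell precursors, had the largest rise (chr8:120736358-120756694, plus strand). It was at 4.23, 3.81, 3.50 and 2.64 CPM in WT BM neutrophils, 31.3, 73.4, 54.8 and 36.3 CPM in TANs of PyMT mice and 67.6, 72.3, 49.1 and 34.4 CPM in PyMT-Cxcr2-/- TANs. The TAN libraries were all far above BM and spread 2.35-fold and 2.10-fold within their groups. Irf8 was 14.5-fold higher in PyMT TANs (log2 fold change 3.86 ± 0.30, adjusted p = 1.2e-06) and 17.4-fold higher in PyMT-Cxcr2-/- TANs (4.12 ± 0.25, adjusted p = 3.4e-08).

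Monocyte and dendritic cell factors rose with Irf8: 10 of 10 tested were called higher in PyMT TANs and 9 of 10 in PyMT-Cxcr2-/- TANs, with a median log2 fold change of 2.61 and 2.57 against 0.087 and 0.086 over all genes. In PyMT TANs the number was 9, Id2 being lost, under several alternatives. Among these were the GC and length adjustment, DESeq2 and the fit without replicate 4 of the PyMT TANs. Klf4, a factor of monocyte formation, rose from 2.11 CPM ± 0.96 in BM to 65.0 CPM ± 32.2 in PyMT TANs and 56.6 CPM ± 11.2 in TANs without Cxcr2, and Nr4a1, needed for the patrolling monocytes of blood, from 72.7 CPM ± 9.84 to 1047 CPM ± 155 and 1359 CPM ± 287.

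Markers of macrophages and monocytes moved with Irf8 and Cebpa. Of 11 such markers, which include Csf1r, 10 were called higher and 1 lower in each TAN group, and none was at 0 in a group. Their summed level was 891 to 1168 CPM in BM, where most of it was Ly6c2, 2300 to 5501 CPM in TANs of PyMT mice and 2603 to 5207 CPM in PyMT-Cxcr2-/- TANs. The largest single part in TANs was Apoe, at 1969 CPM ± 840 with Cxcr2 and 1771 CPM ± 814 without it, so the sums weigh the markers unequally. C1qa averaged 1.26 CPM in BM, 302 CPM in TANs with Cxcr2 and 251 CPM in those without, and Adgre1, the gene of the F4/80 antigen that the sort excluded, 10.3, 138 and 110 CPM. The 4 TAN libraries with the highest sums, 4567 to 5501 CPM against 2300 to 3770 CPM in the other 4, were also the 4 with the highest Cebpa (98.6 to 129 CPM against 57.5 to 71.2 CPM) and the highest Irf8 (54.8 to 73.4 CPM against 31.3 to 49.1 CPM). They were replicates 2 and 3 of the PyMT TANs and replicates 1 and 2 of the PyMT-Cxcr2-/- TANs. The part of such cells in these levels was not tested. In bulk RNA, fewer cells of a type and less RNA per cell cannot be told apart.

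**Figure D4:**
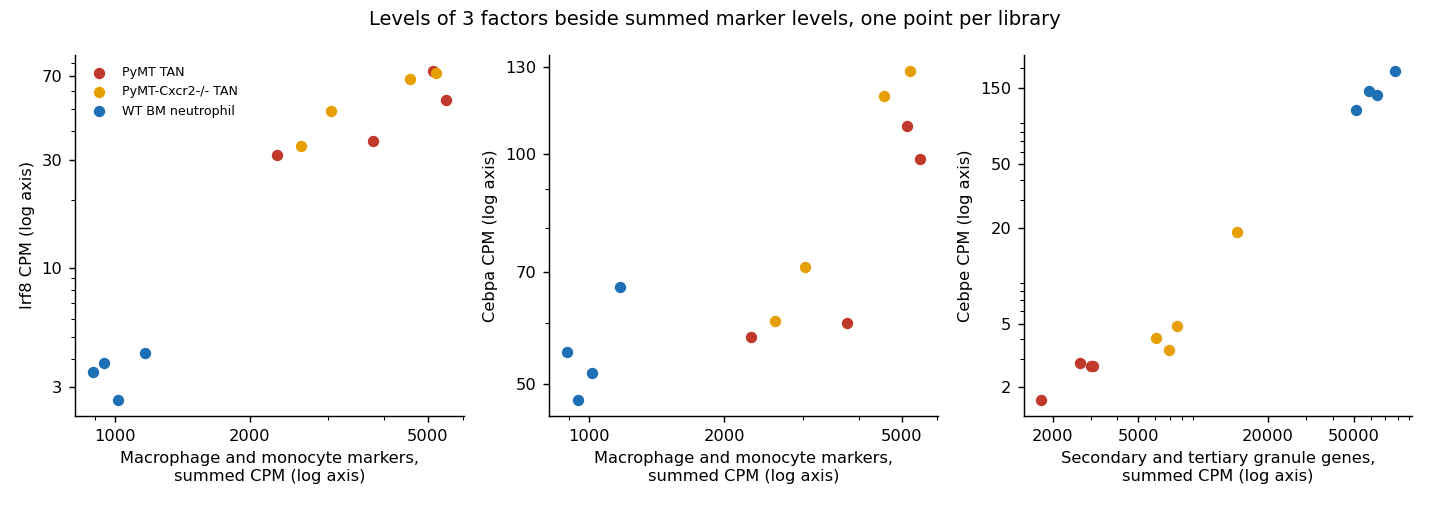
Irf8 and Cebpa against the summed CPM of 11 macrophage and monocyte markers, and Cebpe against the summed CPM of 9 granule genes, 1 point per library on log axes. TANs and BM form separate clusters for Irf8 and Cebpe, and within the TANs the libraries with most marker RNA also have most Irf8 and Cebpa.

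Markers of other cell types were summed as well, and the sizes of sums over different marker sets cannot be ranked. Mammary epithelial and tumor cell markers, 7 genes, summed to 37.0 to 401 CPM in PyMT TANs, 62.9 to 264 CPM in PyMT-Cxcr2-/- TANs and at most 0.23 CPM in BM, where 4 of the 7 were at 0. The 7 dendritic cell markers summed to 354 to 493, 275 to 296 and 128 to 166 CPM, nearly all of it Itgax, and 4 and 5 of the 7 were called higher in PyMT and PyMT-Cxcr2-/- TANs. Clec9a averaged 2.94, 2.16 and 0.90 CPM, Siglech 3.70, 3.83 and 1.01 CPM and Xcr1 0.61, 0.68 and 0.49 CPM, in the same order of groups. The 4 markers of dividing cells summed to 237 to 296 CPM in BM, above 79.0 to 145 CPM in PyMT TANs and 112 to 159 CPM in TANs without Cxcr2, and 2 and 4 of them were called lower. The sums for 6 precursor markers overlapped between the groups (74.4 to 108 CPM in BM, 43.1 to 114 and 66.3 to 103 CPM in TANs), and 4 of them fell while Kit and Cd34 rose. Fibroblast and endothelial markers summed to 11.3 to 13.8 CPM in BM and 16.1 to 39.8 CPM in TANs, lymphocyte markers to 13.8 to 20.9 and 1.29 to 17.0 CPM, and erythroid markers to 3.87 to 17.7 and 0.42 to 88.6 CPM. What these cells add to the 10 factors was not tested.

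Klf2, a Kruppel-like factor that holds cells at rest, and Klf6, one that promotes inflammatory genes, were called in none of the 3 comparisons. Klf2 (chr8:72319033-72321656, plus strand) was at 445, 602, 387 and 205 CPM in TANs of PyMT mice, 354, 311, 337 and 478 CPM in PyMT-Cxcr2-/- TANs and 358, 354, 321 and 373 CPM in WT BM neutrophils. Klf6 (chr13:5861482-5870394, plus strand) was at 819, 813, 756 and 800.3 CPM, 875, 715, 873 and 995 CPM, and 777, 838, 746 and 771 CPM. The ranges overlapped for both genes. For Klf2 the log2 fold change against BM was 0.29 in PyMT TANs (95% interval -0.26 to 0.83, adjusted p = 0.36) and 0.21 in PyMT-Cxcr2-/- TANs (-0.069 to 0.49, adjusted p = 0.16). For Klf6 it was 0.092 (-0.14 to 0.32, adjusted p = 0.48) and 0.28 (0.026 to 0.53, adjusted p = 0.048), the latter under the fold limit. With the GC and length adjustment Klf6 had the opposite sign in both comparisons and Klf2 in that of PyMT-Cxcr2-/- TANs (-0.40). That adjustment moved the median of all genes by -0.24 in PyMT TANs and by -0.49 in PyMT-Cxcr2-/- TANs. Relative to the new median, Klf6 was at -0.075 and 0.26 and Klf2 at 0.16 and 0.0022, in the same order. No direction is given for either gene. Of the other Kruppel-like genes, 2 were higher and 2 lower of 9 tested in PyMT TANs, and 3 higher and 1 lower of 10 in PyMT-Cxcr2-/- TANs, with a median log2 fold change of 0.063 and 0.27 against 0.087 and 0.086 over all genes. Klf5 fell from 158 CPM ± 22.3 to 24.2 CPM ± 4.25 with Cxcr2 and 34.8 CPM ± 11.01 without it, and Klf10 rose from 80.3 CPM ± 7.79 to 159 CPM ± 47.9 and 127 CPM ± 20.5. With the GC and length adjustment 2 were higher and 4 lower, and 2 higher and 3 lower, and Klf10 was not called in PyMT-Cxcr2-/- TANs. Without replicate 4 of the PyMT TANs, 1 was lower there.

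The TANs with and without Cxcr2 were then compared for the same factors. With edgeR's quasi-likelihood test 0 of 10 members were called higher (1.38% of 18463 genes were) and 0 lower (0.596%). At an unadjusted p under 0.05, 4 members passed, namely Cebpb, Cebpe, Spi1 and Runx1. The share of all genes at this limit was not counted, so no excess is read from it. With DESeq2 1 member was called, where 645 genes were higher and 390 lower of 32315 tested. The groups did not overlap for Cebpb, Cebpe and Runx1, that is 3 of 10 members against 12% of all genes tested. The median size of the log2 fold change was 0.34 over the members and 0.34 over all genes.

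Cebpb was 1.67-fold higher in PyMT-Cxcr2-/- TANs, with a 95% interval of 1.14-fold to 2.45-fold (adjusted p = 0.17). Runx1 was 1.37-fold lower, at -0.46 on the log2 scale (95% interval -0.75 to -0.16, adjusted p = 0.11). It passed the p limit with 12 libraries in one fit (adjusted p = 0.037), where its size stayed under the fold limit. Spi1 was at 0.40 (0.018 to 0.79, adjusted p = 0.3), and its groups overlapped.

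Cebpe was at 1.64 on the log2 scale in this comparison (95% interval 0.50 to 2.79, adjusted p = 0.14). The value turned on replicate 4 of the PyMT-Cxcr2-/- TANs and was 0.75 without it (adjusted p = 0.57), and the adjusted p was 0.12 to 0.57 over the single mice left out. DESeq2 gave 1.71 with an adjusted p of 0.026. In the same comparison, 6 of the 9 secondary and tertiary granule genes, Camp, Ngp, Ltf, Cd177, Mmp8 and Lcn2, were called higher in PyMT-Cxcr2-/- TANs, with log2 fold changes of 1.58 to 2.68. That number was 5 without replicate 4 of the PyMT-Cxcr2-/- TANs, 1 without replicate 2 of the PyMT TANs, 2 with the GC and length adjustment and 0 when replicate numbers entered as a block. Of the 8 neutrophil markers, 4 were also called higher in PyMT-Cxcr2-/- TANs than in PyMT TANs and 1 lower. Higher levels there were thus not particular to granule genes.

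For the remaining members the intervals were wide. Gfi1 was at -0.67 (-1.73 to 0.39), Cebpa at 0.22 (-0.40 to 0.83), Irf8 at 0.19 (-0.45 to 0.82) and Cebpd at 0.28 (-0.14 to 0.70). Klf2 was at -0.15 (-0.74 to 0.44), with the opposite sign without replicate 2 of the PyMT TANs, and Klf6 at 0.11 (-0.18 to 0.41). A fold of 1.5 lies inside the interval of Gfi1, Cebpa, Irf8, Cebpd and Klf2, and outside that of Klf6. No gene of the other factor lists was called between the TANs.

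Replicates differed in how evenly they expressed the factors. In BM the coefficient of variation was 4.96% for Klf6 and 23.7% for Cebpe, the lowest and highest of the 10. In PyMT TANs it went from 3.56% for Klf6 to 40.0% for Klf2, and in PyMT-Cxcr2-/- TANs from 6.74% for Cebpb to 94.4% for Cebpe. Replicate 4 of the PyMT TANs was the lowest of its group for Cebpb, Cebpd, Cebpe, Gfi1, Spi1 and Klf2. This library also had the lowest summed neutrophil markers (10428 CPM against 11519 to 16570 CPM in the other 3). Replicate 4 of the PyMT-Cxcr2-/- TANs had the highest Cebpd, Cebpe, Spi1, Klf2 and Klf6 and the lowest Cebpa, Runx1 and Irf8 of its group, and the highest neutrophil markers (28822 CPM against 17639 to 21214 CPM).

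Per kb of exon, the factors had another order in TANs than in BM. Each order rests on the length used, since exon length is 12025 bases for Runx1, of which 1431 are coding. For Cebpd these are 3746 and 804 bases, and an order by coding length was not made. In WT BM neutrophils Spi1 was first at 272 CPM per kb ± 39.2, followed by Cebpb (201 ± 35.3), Klf2 (190 ± 11.9) and Klf6 (178 ± 8.84), and each of these overlapped its neighbor. Cebpd (119 ± 16.8) and Cebpe (117 ± 27.7) overlapped as well, and below them Cebpa (20.99), Runx1 (7.42), Gfi1 (4.04) and Irf8 (0.50) stood apart from each other. In PyMT TANs Cebpb led at 612 CPM per kb ± 236, followed by Klf2 (222 ± 88.8), which overlapped both Cebpb and Klf6 (181 ± 6.46), and by Spi1 (119.6 ± 27.4). Cebpd (34.6) overlapped Cebpa (30.8), Runx1 (14.5) and Irf8 (6.94) were apart, and Cebpe (2.0) and Gfi1 (1.38) came last and overlapped. PyMT-Cxcr2-/- TANs had the same order, from Cebpb at 1024 CPM per kb ± 69.04, apart from all others, down to Gfi1 at 0.87 ± 0.52, and there Runx1 overlapped Irf8, and Irf8 overlapped Cebpe.

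**Figure D5:**
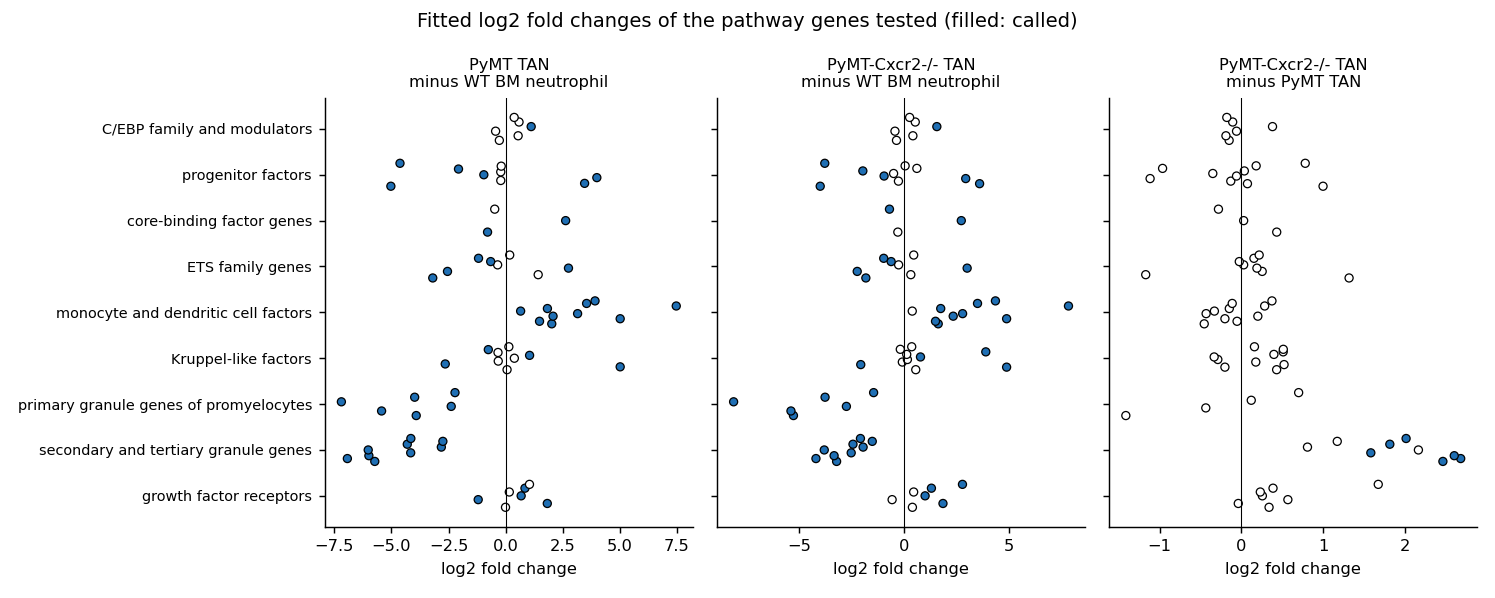
Fitted log2 fold change of the genes tested in 9 lists of related genes in the 3 comparisons, 1 point per gene, filled where called; the panels have their own horizontal scales. All 10 monocyte and dendritic cell factors are called higher in PyMT TANs, all granule genes are lower in both TAN groups, and between the TANs filled points occur in the secondary and tertiary granule genes.

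Progenitor factors behaved unevenly. Of 14 listed genes 9 were tested in PyMT TANs and 10 in PyMT-Cxcr2-/- TANs, and in each case 2 were higher and 4 lower. Myb, a factor of dividing progenitors, fell from 25.1 CPM ± 0.87 in BM to 0.72 CPM ± 0.32 and 1.44 CPM ± 0.66. Erg fell from 65.7 CPM ± 5.78 to 2.57 CPM ± 1.04 and 4.404 CPM ± 3.40, and Myc, a driver of growth, rose from 0.68 CPM ± 0.25 to 7.13 CPM ± 2.80 and 7.52 CPM ± 0.96. Of 7 growth factor receptors tested, 3 were higher and 1 lower in PyMT TANs and 4 were higher in PyMT-Cxcr2-/- TANs. With the GC and length adjustment these were 1 higher and 1 lower, and 2 higher and 1 lower, the receptor genes Csf2rb and Kit being lost in both, and without replicate 1 of the PyMT TANs 1 was higher and 1 lower in PyMT TANs. Csf1r, the macrophage growth factor receptor, rose from 219 CPM ± 33.3 to 742 CPM ± 146 and 724 CPM ± 76.2, whereas Csf3r, the G-CSF receptor, was at 3959 CPM ± 246, 3774 CPM ± 752 and 4778 CPM ± 655 and was not called. In PyMT-Cxcr2-/- TANs against BM, Csf3r passed the p limit of edgeR's test (log2 fold change 0.41, adjusted p = 0.016) but not the fold limit.

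The genes most like each factor were sought over the 12 libraries by Pearson r of log2 CPM among 16324 genes tested in all 3 comparisons. The groups set most of these values, so they are given without a test. Ciita, the master factor of MHC class II genes, was closest to Irf8 (r = 0.998), followed by Tifab and Itgb5. Reck, Cyb5r4 and Scp2 were closest to Cebpe (r = 0.993 to 0.995), Rgl2, Trim11 and Vsir to Cebpd (0.994 to 0.996), and Frmd8, Calm3 and Akt1 to Spi1 (0.992 to 0.995). Bahd1, Csf2rb and Sbno2 followed Cebpb (0.982 to 0.986), Tnfrsf22, Tgs1 and Arid5b followed Runx1 (0.968 to 0.981), and Tmem140, Cbx8 and BC025920 followed Gfi1 (0.952 to 0.965). Psap, Ap4m1 and Ppp5c were closest to Cebpa (0.921 to 0.925), and Klf2 and Klf6 had the weakest best matches, Atp6v0c (0.911) and Apex1 (0.864).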

How the data were processed

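Neutrophils of 12 mice were analyzed, 4 in each of 3 groups. After depletion of ribosomal RNA and paired-end sequencing of directional libraries, the authors aligned reads to mm10 with STAR and counted them with HTSeq, and the deposited values are raw counts per gene. Versions, the annotation release and the strand setting are not given in the sources used here. Symbols and coordinates were taken from GENCODE M21, and 55154 of 55335 identifiers matched.

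Each comparison was fitted over all genes of its 2 groups with edgeR 4.0.16 in R 4.3.3 (TMM, filterByExpr, robust quasi-likelihood test), and p-values were adjusted by the Benjamini-Hochberg method. CPM used TMM factors over the 12 libraries. The standard error was the log2 fold change divided by the square root of F. The alternatives were other factors and filters, a single fit of 12 libraries, estimation that was not robust, replicate numbers as a block, an adjustment for GC content and length (known for 99.9% of genes), DESeq2 1.42.0 and each mouse left out. The scripts were tested on simulated counts. Each p-value sets a difference between groups against the spread between mice of a group, which is estimated with information shared over genes.

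The members, lists and rules were chosen with earlier results of these data known. All 10 members are named. List genes are named where called between the TANs, or among the 4 largest of a list against BM with an average log2 CPM of at least 1. The genes most like a member are its 3 highest r. Genes named outside this rule, such as Cxcr2, markers and Csf3r, were chosen after their values were seen. A gene that the rule would name is not reported here.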

Additional observations from a re-analysis of the deposited data

Results flagged for a closer look

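Of 30 sets of 4 libraries, 1 for each factor and group, 2 held a library whose gap to its nearest neighbor was too large a part of the whole range by Dixon's 95% limit, which chance alone gives in about 5% of such sets. Both concerned Cebpe. In PyMT-Cxcr2-/- TANs, replicate 4 was at 18.7 CPM, above 3.44 to 4.83 CPM in the other 3. In PyMT TANs, replicate 4 was at 1.67 CPM, below 2.70 to 2.83 CPM in the other 3. The cause was not tested.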

How the results depend on the processing

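The 4 members lower in each comparison with BM were also 4 under every alternative that kept all mice, and 3 or 4 (PyMT-Cxcr2-/- TANs) or 4 (PyMT TANs) with a mouse left out. The number of higher members fell from 4 to 2 in both comparisons with the GC and length adjustment, alone or with the replicate block, and Cebpa and Runx1 were the 2 lost. Between the TANs it was 0, and 1 with DESeq2. Under the GC and length adjustment the log2 fold change changed sign in PyMT TANs against BM for Klf6 (-0.22, and -0.23 with the block) and, with the block, for Klf2 (-0.074). In PyMT-Cxcr2-/- TANs against BM it did so for Runx1 (-0.22 and -0.22 with the block), Klf2 (-0.40 and -0.43) and Klf6 (-0.14 and -0.15). Klf2 between the TANs went from -0.37 to 0.10 as single mice were left out and was positive without replicate 2 of the PyMT TANs. The cause was not tested, but the adjustment moved the median of all genes as well. Over single mice left out, 75, 78 and 79 of 80 values per comparison kept direction and side of the threshold.

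Same-numbered mice of different groups did not deviate together (r from -0.21 to 0.084), and 5 of 24 best matches had the same number. With the replicate number as a block, 3 members were higher in PyMT TANs than in BM, Cebpa being lost at 0.57 (adjusted p = 0.057), and genes called over all genes between the TANs went from 255 higher and 110 lower to 4 and 9. They were 471 and 123 without the count filter, 579 and 307 with 12 libraries in one fit, 39 and 37 with the GC and length adjustment, 12 and 19 with the block added to it, 645 and 390 with DESeq2, and 10 to 427 higher and 13 to 100 lower with a mouse left out, the lowest (10 and 13) without replicate 2 of the PyMT TANs and the highest (427 and 86) without replicate 1. Depth limits Gfi1 most, at 28 counts in 1 library. Without TMM factors, mean levels in BM were lower by more than 1 SD for 7 members, Cebpb at 248 CPM for instance.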
